A study of Mus musculus with 8 samples.

Results

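Whole bone marrow (BM) of leukemic mice with and without Gab2 was compared gene by gene, with every gene of the deposited count table outside chromosome 7, on which Gab2 lies. Of 13305 listed genes, 13266 were found in GENCODE M21, 1020 of them lie on chromosome 7, and the remaining 12246 genes were compared between 3 AML KO and 3 AML WT mice. All mice were C57BL/6N and carried Mx1-Cre, Dnmt3a+/- and Flt3ITD/ITD. AML WT mice were Gab2+/+, AML KO mice Gab2-/-, and the 2 AML HET mice of the series, which share the model for the spread but not the contrast, Gab2+/-. In this model the Flt3-ITD and Gab2 KO alleles are constitutive and present in every cell, the KO allele holds a neomycin cassette in place of several Gab2 exons, and Mx1-Cre, driven by an interferon-inducible promoter, deletes the floxed Dnmt3a allele without induction. Each library came from 1 mouse. No healthy mice were sequenced, so levels are relative to leukemic BM.

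Gab2 is a docking protein that is phosphorylated by activated receptor and cytoplasmic tyrosine kinases and then recruits the phosphatase Shp2 and the regulatory subunit of PI3-kinase, which carries the signal to the Ras/MAPK, PI3K/Akt and Stat5 pathways. Flt3-ITD is a constitutively active receptor tyrosine kinase that signals through this docking step. Dnmt3a is a de novo DNA methyltransferase whose loss favors self-renewal of hematopoietic stem cells. Whole BM holds blasts together with erythroid, megakaryocytic, granulocytic, monocytic, lymphoid and stromal cells, and in such samples fewer cells of a type and less RNA per cell cannot be told apart.

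The AML WT and AML KO libraries held 28060639 to 39266815 counts on genes. Gab2 itself had 93.9, 68.5 and 61.6 CPM (counts scaled to TMM library size) in AML WT and 35.0, 47.2 and 40.2 CPM in AML KO BM, a log2 fold change of −0.87 (SE 0.18, edgeR adjusted p = 0.042). Every AML KO mouse was below every AML WT mouse, and the reads left on the gene cannot be assigned to exons from counts per gene. Flt3 (127 ± 1.28 against 118 ± 10.5 CPM, SD, n = 3 each) and Dnmt3a (70.2 ± 13.2 against 58.1 ± 11.6 CPM) had edgeR adjusted p of 0.63 and 0.422. The 4 Y-linked genes searched for were detected in every mouse.

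Markers of the BM lineages moved with the genotype, and their part in the results that follow was not tested. Summed over 44 erythroid markers, AML KO mice 1 to 3 held 4769, 1988 and 2537 CPM, against 970 to 1084 CPM in AML WT mice. The 28 megakaryocyte and platelet markers summed to 607 to 725 CPM in AML KO and 230 to 336 CPM in AML WT BM, and the 30 mature neutrophil markers to 12366 to 19485 CPM and 2387 to 5949 CPM. These 3 lists did not overlap between the groups (exact permutation test, two-sided p = 0.1 each, the smallest that 3 mice against 3 allow). Basophil and mast cell markers were also higher in every AML KO mouse, with 188 to 318 CPM against 54.0 to 71.8 CPM, and HSPC (stem and progenitor) markers with 1180 to 1316 CPM against 877 to 963 CPM. The 8 dendritic cell markers summed to 1990 to 3344 CPM in AML KO and 3517 to 8345 CPM in AML WT BM. Monocyte (12518 to 19478 against 17452 to 20009 CPM), macrophage (397 to 584 against 562 to 645 CPM), osteoclast (521 to 648 against 625 to 803 CPM) and stromal and endothelial lists (589 to 959 against 925 to 1534 CPM) overlapped between the groups. Of 251 marker genes outside chromosome 7, 75 rose and 4 fell, or 31.5% in all, and the remaining 11995 genes are described here by their functions.

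**Figure D1:**
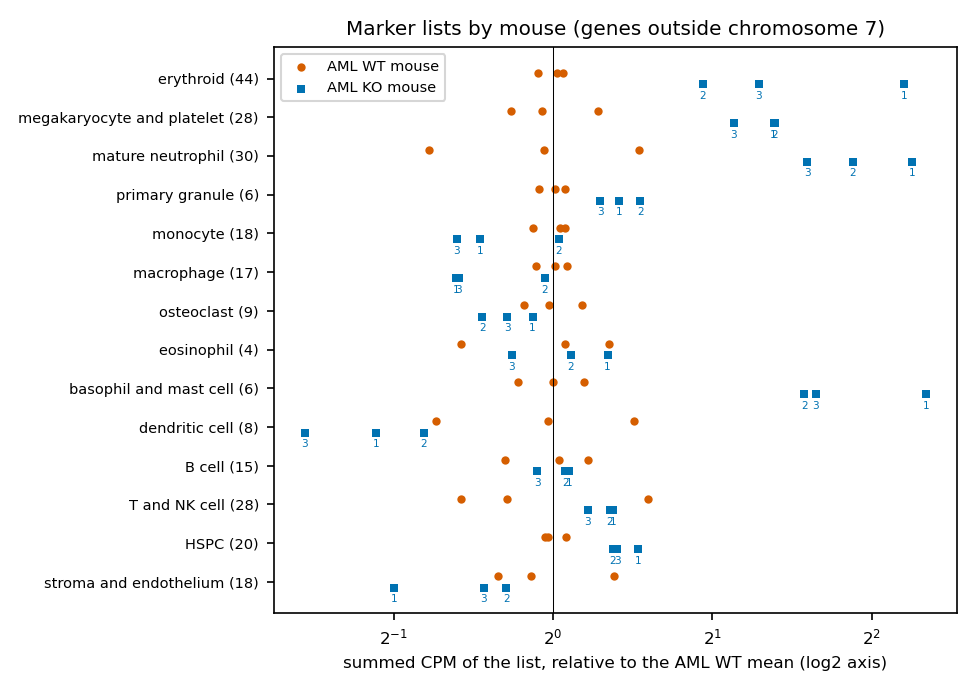
Summed level of each marker list in each mouse, divided by the mean of the 3 AML WT mice, on a log2 axis; circles are AML WT and squares AML KO mice, the small digit under a square is the AML KO replicate, and the number of genes is given in parentheses. Erythroid, megakaryocyte, neutrophil and basophil lists were among those higher in all 3 AML KO mice. Of the AML KO mice, replicate 1 stood highest for the erythroid, neutrophil, basophil and HSPC lists, among others. Replicate 2 stood highest for the monocyte, macrophage, primary granule, dendritic cell and stromal lists, and barely above replicate 1 for the megakaryocyte list.

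Outside chromosome 7, 247 genes (2.02%) had an edgeR adjusted p under 0.05, and 212 of them were higher (1.73%) and 35 lower (0.286%) in AML KO than in AML WT BM. Beyond the markers, 168 of 11995 genes were called (1.40%), of which 137 rose (1.14%) and 31 fell (0.258%). At an unadjusted p under 0.05 there were 1046 higher (8.72%) and 947 lower genes (7.89%) among them, so the excess of rises over falls was much larger among the genes that passed the adjusted threshold. The median log2 fold change of all 12246 genes was −0.02. Rises were large and came mostly from low levels: 57 of 137 were at least 4-fold and 53 between 2- and 4-fold, and 49 had a mean below 1 CPM in AML WT BM. Falls were smaller, with 2 of 31 at least 4-fold and a median log2 fold change of −1.31, and none had a mean below 1 CPM in AML WT BM. In all 168 genes every AML KO mouse lay on 1 side of every AML WT mouse, as in 11.2% of the genes beyond markers in the higher and 10.1% in the lower direction. The AML HET mean lay between the other means for 134 of 137 rises and 29 of 31 falls. Most calls needed all mice: 18 of the 137 rises and, with markers included, 2 of the 35 falls passed the threshold in each of the 8 fits that left out 1 mouse, and without AML WT replicate 2 118 of the rises and 33 of the falls did not.

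**Figure D2:**
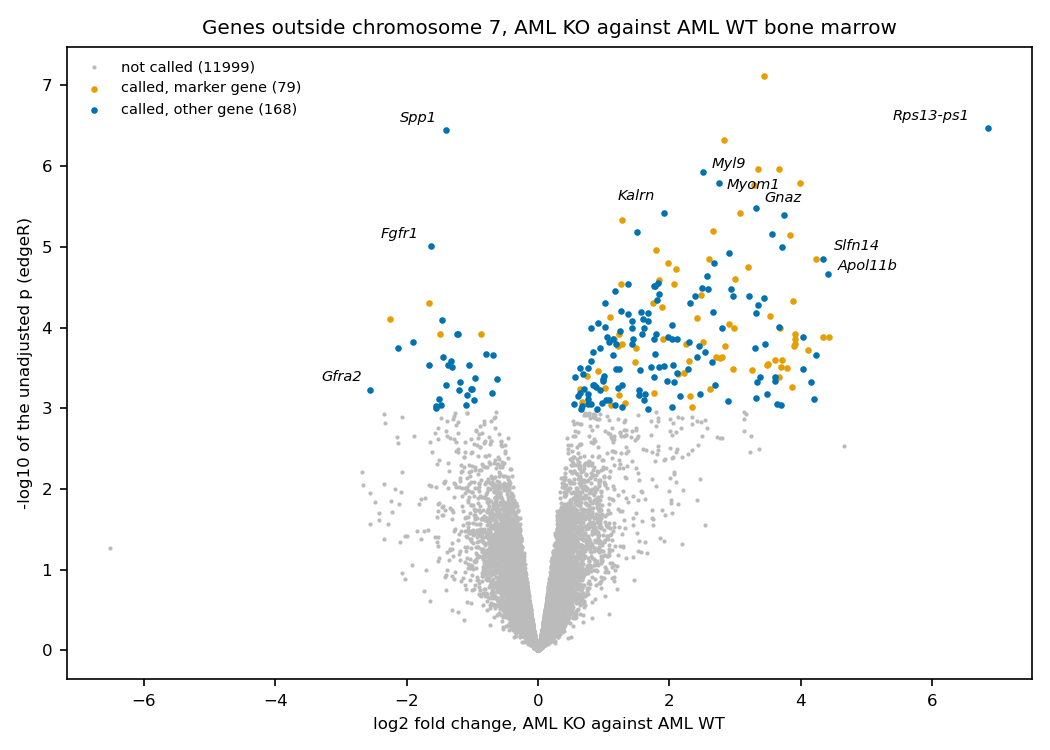
Log2 fold change (AML KO against AML WT, x axis) against −log10 of the unadjusted edgeR p (y axis) for the 12246 genes outside chromosome 7. Grey points were not called, orange points are 79 called marker genes and blue points 168 other called genes, most of which lie on the right, at higher levels in AML KO BM.

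Among the falls were single genes linked to bone matrix and collagen, including the one with the smallest p. Of 128 matrix and adhesion genes edgeR called 1 higher and 2 lower (2.34% against 1.40% of all genes beyond markers). DESeq2 called 1 higher and 4 lower. None of the 18 stromal and endothelial markers, collagen genes among them, was called, and their median log2 fold change was −0.019. Spp1 (ENSMUSG00000029304, chromosome 5, 104435118 to 104441050), the secreted matrix phosphoprotein osteopontin, had 87.6, 89.7 and 88.3 CPM in AML WT and 34.0, 32.7 and 33.5 CPM in AML KO BM. Its values were nearly the same within each group and far apart between them. Spp1 fell by 1.41 on the log2 scale (SE 0.11, edgeR adjusted p = 0.00119), and by 1.39 to 1.42 when any mouse was left out, with an adjusted p of at most 0.0209. P4ha1, the catalytic subunit of a collagen prolyl hydroxylase, had 48.6 to 50.4 CPM in AML WT and 24.5 to 33.3 CPM in AML KO BM (log2 fold change −0.80, SE 0.14). Htra3, a secreted serine protease, fell by 1.08 on that scale. The osteoclast markers Ctsk, the bone-degrading cathepsin K, and Acp5, tartrate-resistant acid phosphatase, fell with them. Ctsk had 72.6, 64.0 and 70.5 CPM in AML WT and 10.4, 24.5 and 8.69 CPM in AML KO BM (log2 fold change −2.25, SE 0.34, edgeR adjusted p = 0.0131), with AML KO replicate 2 nearest to AML WT. Other osteoclast markers were not called. Of these 5 genes only Spp1 kept its call whichever mouse was left out, and the other 4 lost it without AML WT replicate 2.

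Cell surface receptors and kinases made up another group of falls. Fgfr1 (ENSMUSG00000031565, chromosome 8, 25513654 to 25575718), a receptor tyrosine kinase for fibroblast growth factors, had 22.7, 26.2 and 23.8 CPM in AML WT and 7.59, 9.54 and 6.42 CPM in AML KO BM. The highest AML KO mouse lay below 10 CPM and the lowest AML WT mouse above 20 CPM. The log2 fold change was −1.63 (SE 0.19, edgeR adjusted p = 0.00582), and Fgfr1 kept its call in each fit without 1 mouse, with an adjusted p of at most 0.0413. Ddr1, a receptor tyrosine kinase that binds collagen, had 26.4 to 32.0 CPM in AML WT and 9.40 to 14.1 CPM in AML KO BM (log2 fold change −1.23, SE 0.20). Gfra2, the co-receptor for neurturin, had the largest fall among the called genes, from 2.53, 2.78 and 2.97 CPM to 0.164, 0.910 and 0.354 CPM, which are 88 to 103 and 5 to 25 reads (log2 fold change −2.55, SE 0.51, edgeR adjusted p = 0.0349). It lost its call in 7 of the 8 fits without 1 mouse, and with AML WT and AML KO mice alone (adjusted p = 0.0651). Dapk1, a calmodulin-regulated kinase linked to cell death, fell least (37.2 to 40.4 against 24.1 to 27.1 CPM, log2 fold change −0.62). Il1rl1, the IL-33 receptor, had 11.8, 16.8 and 20.02 CPM in AML WT and 6.83, 6.22 and 4.77 CPM in AML KO BM, a log2 fold change of −1.45 (SE 0.25, edgeR adjusted p = 0.0208). Among 110 G protein-coupled receptors (3.64% called, against 1.40% of all genes beyond markers), the cysteinyl leukotriene receptor Cysltr1 and the orphan receptor Gpr141b fell by 1.31 and 1.47 on the log2 scale, and Gpr84, a receptor for medium-chain fatty acids, rose by 1.76. Of these 7 lower genes 6 lost their call when AML WT replicate 2 was left out, and 6 when AML KO replicate 3 was.

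Lectins, a sensor of double-stranded RNA and the regulator of antigen presentation also fell. Ciita (ENSMUSG00000022504, chromosome 16), the transactivator of MHC class II genes, had 54.7, 58.1 and 67.4 CPM in AML WT and 20.01, 33.5 and 16.7 CPM in AML KO BM. The groups were separate, and AML KO replicate 2 was again nearest to AML WT. The log2 fold change was −1.36 (SE 0.25, edgeR adjusted p = 0.0233), while its target genes H2-Aa, H2-Ab1, H2-Eb1 and Cd74 had log2 fold changes of −1.12, −1.001, −1.18 and −1.21 with edgeR adjusted p of 0.0736 to 0.177. Ciita overlaps Dexi on the opposite strand, and whether counting used strand is not given in the sources used here. The C-type lectins Cd209c and Cd209d, relatives of DC-SIGN that lie next to each other on chromosome 8 (3940222 to 3954746 and 3871824 to 3878555), fell by 1.66 and 1.40 on the log2 scale. Cd209c had 8.65, 11.98 and 18.8 CPM in AML WT and 4.58, 3.75 and 4.16 CPM in AML KO BM, so that the spread lay in AML WT. As paralogs they may share reads. Mgl2, a galactose-binding lectin of macrophages and dendritic cells, had 49.2, 90.5 and 132 CPM in AML WT and 26.4, 41.4 and 25.4 CPM in AML KO BM (log2 fold change −1.54, SE 0.33, edgeR adjusted p = 0.0473), and its limma-voom adjusted p was 0.0607. The mannose receptor Mrc1, a macrophage marker, fell from 171 ± 19.2 to 93.9 ± 7.97 CPM (SD, n = 3 each), and Tlr3, the endosomal receptor for double-stranded RNA, from 9.45 ± 0.674 to 3.34 ± 1.07 CPM. Lyz1, a lysozyme and monocyte marker with a close relative in Lyz2, had 7.57 to 13.3 CPM in AML WT and 3.63 to 4.33 CPM in AML KO BM. All 7 genes lost their call without AML WT replicate 2, and so they did without AML KO replicate 3, with adjusted p of at most 0.191 over the fits without 1 mouse.

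Another 13 falls were transporters, signaling proteins and structural proteins. Abca9 and Abca6, ABC transporters of the lipid-related A subfamily that are neighbors on chromosome 11 (110100749 to 110168196 and 110176820 to 110251776), fell together. Abca9 had 24.6, 29.9 and 27.5 CPM in AML WT and 9.58, 15.1 and 10.5 CPM in AML KO BM (log2 fold change −1.22, SE 0.20, edgeR adjusted p = 0.0156). They were the members that edgeR called among 61 ATP-driven pumps and ABC transporters (3.28% against 1.40% of all genes beyond markers), and DESeq2 called 3 higher and 3 lower. Of the 61, 43 had a log2 fold change below 0, as did 6440 of all 12246 genes. The solute carriers Slc37a2, a sugar-phosphate exchanger, and Slc46a3, a lysosomal transporter, fell by 1.02 and 0.69 on the log2 scale. Pmaip1, the proapoptotic BH3-only protein Noxa, had 24.5, 27.6 and 34.1 CPM in AML WT and 15.8, 13.4 and 14.7 CPM in AML KO BM (log2 fold change −0.97, SE 0.20, edgeR adjusted p = 0.0427, limma-voom 0.0502). Adap2, a GTPase-activating protein for Arf6, and Arhgef37, which has a guanine nucleotide exchange factor domain, fell by 1.20 and 1.00. Sept3, a septin, had 14.9 to 19.1 CPM in AML WT and 5.17 to 8.30 CPM in AML KO BM, a log2 fold change of −1.46 (SE 0.22). Shtn1, which links actin to cell adhesion molecules in growing neurites, Filip1l, which overlaps Cmss1 on the opposite strand, and Rtn1, a reticulon of the endoplasmic reticulum, fell by 1.05, 0.69 and 1.19. Scel, a precursor of the cornified envelope, fell from 2.20 to 3.39 CPM to 0.392 to 0.884 CPM, and the numbered gene model Gm43197 by 1.55 on the log2 scale. Leaving out AML WT replicate 2 ended the call of all 13, and leaving out AML KO replicate 3 that of 12.

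**Figure D3:**
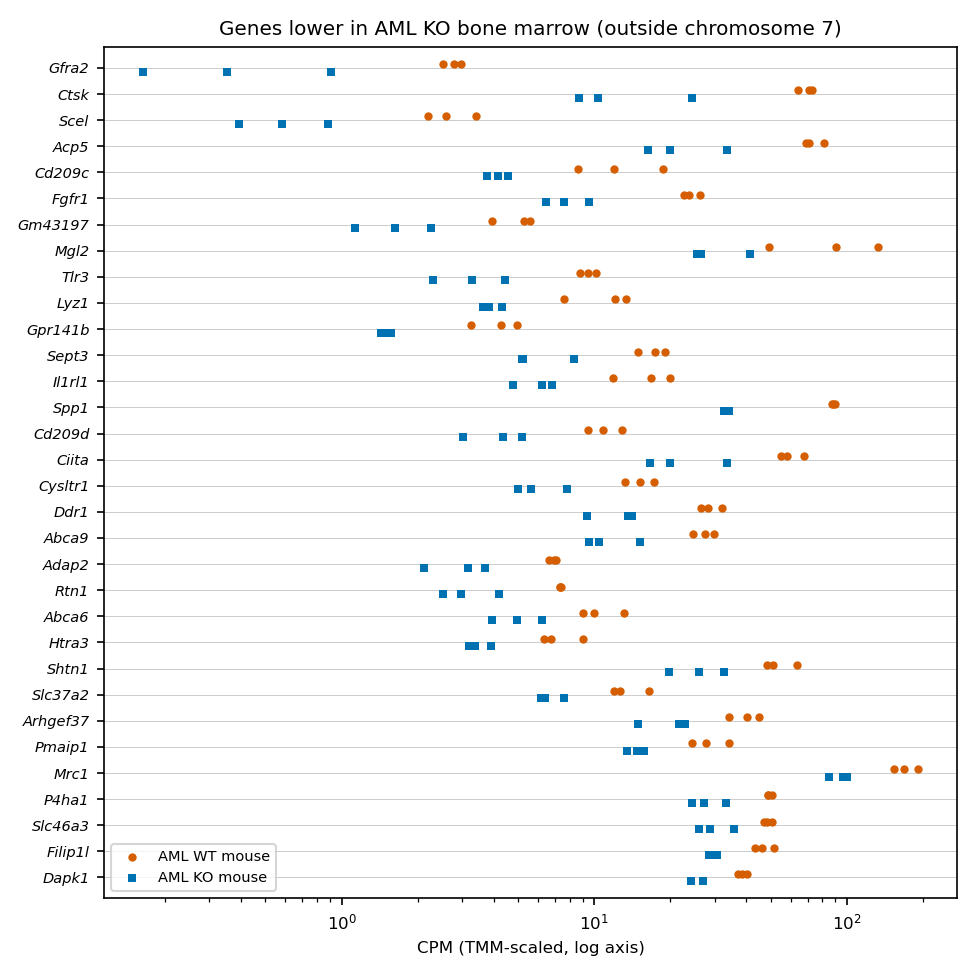
CPM (TMM-scaled, log axis) of genes lower in AML KO BM, markers included, in each AML WT (circles) and AML KO mouse (squares), ordered by log2 fold change. No gene overlapped between the groups; Spp1 showed the tightest groups, and Gfra2 at the top, with a log2 fold change of −2.55, the lowest AML KO value.

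Genes of signaling through heterotrimeric G proteins and cyclic nucleotides were among the rises. Gnaz (ENSMUSG00000040009, chromosome 10, 74967177 to 75016907), the alpha subunit Gz, which inhibits adenylyl cyclase and is abundant in platelets, had 0.418, 0.348 and 0.306 CPM in AML WT and 4.22, 3.49 and 3.18 CPM in AML KO BM. All AML KO mice lay far above all AML WT mice. Gnaz rose 10.01-fold (log2 fold change 3.32, SE 0.35, edgeR adjusted p = 0.00354) and kept its call without any single mouse. It was the member that edgeR called among 39 G protein subunits and RGS proteins (2.56% against 1.40% of all genes beyond markers). Pde3a, which degrades cAMP, had 0.590, 0.190 and 0.184 CPM in AML WT and 4.74, 2.62 and 2.65 CPM in AML KO BM (log2 fold change 3.32, SE 0.49, edgeR adjusted p = 0.0121). Pde10a and Pde5a, the latter a cGMP-specific phosphodiesterase, rose by 2.69 and 1.15 on the log2 scale, and the adenylyl cyclase Adcy5 by 2.05. In a group named after values were seen, edgeR called 4 of 18 enzymes that make or degrade cyclic nucleotides higher (against 1.14% of all genes beyond markers) and none lower, while the median log2 fold change of the 18 was 0.04. At an unadjusted p under 0.05, 4 were higher and 2 lower, and DESeq2 called 4 higher and 1 lower. The thyrotropin receptor Tshr, which couples to Gs, rose from 0.123 to 0.306 CPM to 0.825 to 1.46 CPM. Megakaryocyte markers stood 607 to 725 against 230 to 336 CPM in the same mice, and whether the rises go with them was not tested.

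Of 238 kinases, 4 rose and 3 fell (2.94% against 1.40% of all genes beyond markers). Src, the founding cytoplasmic tyrosine kinase of its family, had 2.73, 2.06 and 2.14 CPM in AML WT and 5.89, 5.09 and 5.42 CPM in AML KO BM (log2 fold change 1.24, SE 0.23, edgeR adjusted p = 0.0245). Tie1, an endothelial and hematopoietic receptor kinase, had 9.27 to 13.4 CPM in AML WT and 21.5 to 32.6 CPM in AML KO BM, and Prkcq, protein kinase C theta, 4.96 to 5.94 and 10.8 to 13.7 CPM. Dapk2 rose by 1.54 on the log2 scale, whereas its relative Dapk1 fell by 0.62. The atypical small GTPases Rhou and Rnd1 rose by 1.05 and 1.09. Kalrn (ENSMUSG00000061751, chromosome 16), a guanine nucleotide exchange factor for Rac, had 2.06, 2.06 and 2.14 CPM in AML WT and 8.18, 8.37 and 7.13 CPM in AML KO BM. Its AML WT values hardly differed, and it rose 3.78-fold (SE 0.20 on the log2 scale, edgeR adjusted p = 0.00354). Of the 14 signaling genes of these last paragraphs, Gnaz and Kalrn kept their call without any single mouse, and 12 lost it without AML WT replicate 2.

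Several transporters and channels of ions and metabolites rose. Slc38a5 (ENSMUSG00000031170, chromosome X), a glutamine transporter known in erythroid precursors, had 0.147, 0.190 and 0.367 CPM in AML WT and 7.55, 1.67 and 3.36 CPM in AML KO BM. The AML KO values spread widely, in the order of the erythroid markers, with replicate 1 highest and replicate 2 lowest. The log2 fold change was 4.16 (SE 0.80, edgeR adjusted p = 0.0305), and limma-voom gave an adjusted p of 0.0757. Slc6a4, the serotonin transporter of platelets and neurons, had 0.762, 0.506 and 0.429 CPM in AML WT and 3.30, 4.11 and 2.86 CPM in AML KO BM (log2 fold change 2.58, SE 0.34, edgeR adjusted p = 0.00819). Slc35d3, needed for platelet dense granules, and Slc2a3, the glucose transporter Glut3, rose by 2.54 and 0.70 on the log2 scale. With the 2 falls named above, 2.80% of 214 solute carriers were called, against 1.40% of all genes beyond markers, and their median log2 fold change was −0.01. Mfsd2b (ENSMUSG00000037336, chromosome 12), the sphingosine-1-phosphate exporter of erythrocytes and platelets, had 2.09, 2.59 and 2.60 CPM in AML WT and 26.0, 13.5 and 15.1 CPM in AML KO BM (log2 fold change 2.91, SE 0.35, edgeR adjusted p = 0.0064). Among 78 ion channels, edgeR called 3 higher and none lower (3.85%), and DESeq2 5 higher and 2 lower. The 3 were Kcnj5, a potassium channel opened by G protein beta-gamma subunits, which rose from 0.153 to 0.411 CPM to 2.08 to 3.30 CPM, the cation channel Trpc6 from 0.316 to 0.369 CPM to 1.21 to 2.85 CPM, and the proton channel Hvcn1, which sustains the oxidative burst of phagocytes, from 21.3 to 31.3 CPM to 40.5 to 47.8 CPM. Mfsd2b and Kcnj5 kept their call without any single mouse, 5 of the 8 genes lost it without AML WT replicate 2, and 5 without AML WT replicate 1.

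A few genes of the contractile and nuclear cytoskeleton rose, among them Myl9 and Myom1, which had the smallest p of all rises beyond markers after Rps13-ps1. Myl9 (ENSMUSG00000067818, chromosome 2, 156775420 to 156781658), a regulatory myosin light chain of smooth muscle and platelets, had 2.14, 1.83 and 2.27 CPM in AML WT and 13.1, 11.7 and 10.99 CPM in AML KO BM. Both groups were tight, and Myl9 rose 5.71-fold (log2 fold change 2.51, SE 0.23, edgeR adjusted p = 0.00192). Myom1, a sarcomeric M-band protein, had 0.738, 0.664 and 1.01 CPM in AML WT and 5.53, 5.53 and 5.25 CPM in AML KO BM (log2 fold change 2.75, SE 0.26, edgeR adjusted p = 0.00206), and it overlaps Myl12a on the opposite strand. Mylk3, a myosin light chain kinase, rose by 3.31 and Tpm2, a tropomyosin, by 1.43 on the log2 scale. Pls1, an actin-bundling plastin, rose by 3.34. Syne1, a giant protein of the nuclear envelope that tethers it to actin, had 21.4, 23.0 and 31.8 CPM in AML WT and 80.3, 65.3 and 71.7 CPM in AML KO BM (log2 fold change 1.51, SE 0.17, edgeR adjusted p = 0.00472). Of 100 actin and myosin genes edgeR called 3 higher and none lower (3% against 1.40% of all genes beyond markers), while 55 of the 100 had a log2 fold change below 0 and the median was −0.02. Of 164 tubulin, kinesin and septin genes (1.83% called) Tuba8 and Ttll11 rose and Sept3 fell. Membrane traffic contributed 5 rises among 284 genes (1.76%, near the 1.40% of all genes beyond markers): Sytl1, Sytl4, which is the granuphilin of dense-core granules, the Rab GTPase Rab37, the v-SNARE Vamp5 and the lipid transfer protein Sec14l2, with log2 fold changes of 0.77 to 2.17. Myl9, Myom1 and Syne1 kept their call without any single mouse, and 10 of these 13 genes lost it without AML WT replicate 2.

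Some apolipoproteins L and esterases rose from low levels, while lipid genes as a family did not. Of 141 fatty acid, phospholipid and lipoprotein genes, edgeR called 3 higher and none lower (2.13% against 1.40% of all genes beyond markers). Their median log2 fold change was −0.04, with 10 higher and 23 lower at an unadjusted p under 0.05. DESeq2 called 7 of them higher and 10 lower. Apol11b (ENSMUSG00000091694, chromosome 15, 77633946 to 77643286) had 0.443, 1.26 and 0.827 CPM in AML WT and 27.2, 12.7 and 13.6 CPM in AML KO BM. It rose 21.3-fold (log2 fold change 4.41, SE 0.58, edgeR adjusted p = 0.00819) and kept its call without any single mouse, with log2 fold changes of 3.97 to 4.82. Apol8, on chromosome 15 as well (77747798 to 77757003), rose by 3.45 (SE 0.58). Apol11a (77508271 to 77518051) had 2, 4 and 0 reads in AML WT and 37, 23 and 32 reads in AML KO BM (edgeR adjusted p = 0.0244), and its fold is poorly fixed at this depth. Of 5 apolipoprotein L genes, a group named after values were seen and whose members may share reads, edgeR called these 3 higher (against 1.14% of all genes beyond markers). Apol7c went the other way, from 2.49 to 0.466 CPM in the mean (log2 fold change −2.42, SE 0.87, edgeR adjusted p = 0.225), and DESeq2 called 1 of the 5 lower. The carboxylesterases Ces2g and Ces1d, which hydrolyse ester bonds of lipids and drugs, rose by 3.48 and 3.45. Ces2g had 0.271, 0.601 and 0.429 CPM in AML WT and 8.40, 2.95 and 3.12 CPM in AML KO BM (SE 0.70, edgeR adjusted p = 0.0381, limma-voom 0.0826). Ache, acetylcholinesterase, which erythrocytes carry on their surface, had 0.787, 0.853 and 0.949 CPM in AML WT and 8.40, 4.44 and 7.51 CPM in AML KO BM (log2 fold change 2.97, SE 0.42, edgeR adjusted p = 0.00988). The aldo-keto reductases Akr1c12 and Akr1c13, close paralogs on chromosome 13, rose by 1.45 and 0.95. Lipid enzymes with higher starting levels rose less: Alox5, the 5-lipoxygenase of leukotriene synthesis, had 14.7 to 20.5 CPM in AML WT and 25.6 to 34.0 CPM in AML KO BM, and Mgll, which splits monoacylglycerol, 3.22 to 5.24 and 9.46 to 16.9 CPM. G0s2, an inhibitor of triglyceride lipase that overlaps Lamb3 on the opposite strand, and Pcyt1b, of phosphatidylcholine synthesis, rose by 1.62 and 1.28. Apol11b alone kept its call without any single mouse, 11 of the 12 genes lost it without AML WT replicate 2, and 11 of 12 were highest in AML KO replicate 1, as were the erythroid markers.

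Surface proteins beyond the marker lists were led by 2 genes of 1 locus. Ly6g6f (ENSMUSG00000034923, chromosome 17, 35080480 to 35085610) and Mpig6b (ENSMUSG00000073414, chromosome 17, 35062693 to 35066184) lie within the MHC class III region, and both encode immunoglobulin-domain receptors of platelets. Ly6g6f had 0.221, 0.474 and 0.398 CPM in AML WT and 5.004, 4.77 and 4.80 CPM in AML KO BM, a 13.4-fold rise (log2 fold change 3.74, SE 0.40, edgeR adjusted p = 0.00354). Mpig6b had 0.566, 0.253 and 0.429 CPM in AML WT and 6.21, 5.28 and 3.54 CPM in AML KO BM (log2 fold change 3.56, SE 0.40, edgeR adjusted p = 0.00472). Both kept their call without any single mouse. Btnl10, a butyrophilin-like protein, had 0.393, 0.790 and 0.857 CPM in AML WT and 13.1, 3.68 and 7.99 CPM in AML KO BM, in the order of the erythroid markers (log2 fold change 3.61, SE 0.69, edgeR adjusted p = 0.03, limma-voom 0.0762). The tetraspanin Cd63, a protein of granule and late endosomal membranes, rose from 48.6 ± 11.3 to 126 ± 28.6 CPM (SD, n = 3 each), and the C-type lectin receptor Clec4b2 from 1.01 to 1.11 CPM to 2.71 to 3.86 CPM. Cd24a, Cd27, which overlaps Vamp1 on the opposite strand, Tfr2, the second transferrin receptor, and the semaphorin receptor Plxna4 rose by 0.64, 0.77, 1.18 and 1.93 on the log2 scale. Among 143 lectins, Siglecs and leukocyte surface receptors, edgeR called 5 higher and 2 lower (4.90% against 1.40% of all genes beyond markers), whereas DESeq2 called 11 higher and 15 lower, so the balance of directions depends on the tool. Of 9 rises at the cell surface, 7 lost their call without AML WT replicate 2.

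Of 291 transcription factors, edgeR called 5 higher and none lower (1.72%, near the 1.40% of all genes beyond markers). At an unadjusted p under 0.05, 31 were higher and 27 lower, DESeq2 called 10 higher and 6 lower, and 162 of the 291 had a log2 fold change below 0. Cebpe (ENSMUSG00000052435, chromosome 14), needed for the terminal steps of granulocyte differentiation, had 9.24, 15.99 and 16.6 CPM in AML WT and 56.5, 43.6 and 41.6 CPM in AML KO BM. It rose 3.40-fold (log2 fold change 1.76, SE 0.24, edgeR adjusted p = 0.00898) and kept its call without any single mouse, the largest adjusted p being 0.0499. Gfi1, a repressor that also acts in granulocyte differentiation, had 25.8 to 26.9 CPM in AML WT and 36.6 to 46.2 CPM in AML KO BM (log2 fold change 0.69, SE 0.13). Zfpm1, the cofactor Fog1 of Gata1 in erythroid and megakaryocytic cells, had 9.07, 9.10 and 6.37 CPM in AML WT and 18.1, 20.7 and 16.7 CPM in AML KO BM (log2 fold change 1.18, SE 0.25, edgeR adjusted p = 0.0457). Mxd1, an antagonist of Myc that goes with differentiation, rose by 0.84. Of 209 histone and chromatin genes (0.957% called, below the 1.40% of all genes beyond markers) the linker histone H1fx and the Polycomb protein Cbx6 rose. At an unadjusted p under 0.05, 21 of the 209 were higher and 18 lower. Among 287 RNA-binding and translation genes (0.697% called), Lin28a, which blocks maturation of let-7 microRNA, had 2.04, 3.41 and 4.90 CPM in AML WT and 17.3, 10.9 and 12.5 CPM in AML KO BM (log2 fold change 1.98, SE 0.32, edgeR adjusted p = 0.0163), and Rbpms2 rose by 2.81. Tent5c, a cytoplasmic poly(A) polymerase, rose by 2.58. Slfn14, a ribosome-associated endoribonuclease of platelets and reticulocytes, had 0.147, 0.126 and 0.367 CPM in AML WT and 5.85, 3.13 and 4.13 CPM in AML KO BM (log2 fold change 4.34, SE 0.54, edgeR adjusted p = 0.0064). Slfn14 and Cebpe kept their call in each fit without 1 mouse, and the other 8 of these 10 genes lost it without AML WT replicate 2.

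Slfn14 was the member that edgeR called in a family of 76 Schlafen, GBP and other interferon-induced genes. It belongs there by its Schlafen symbol, and whether interferon induces it in this BM was not tested. The median log2 fold change of the 76 genes was −0.66, and 63 were below 0. At an unadjusted p under 0.05, 15 were lower, and DESeq2 called 4 lower. The direction rested on 1 mouse. Relative to the AML WT mean, the median of these genes was 0.78 (log2) in AML WT replicate 3, −0.61 and −0.79 in the other AML WT mice, and −0.73 to −0.51 in the AML KO mice. Without AML WT replicate 3 the median log2 fold change was 0.04 and 34 of 76 genes were below 0.

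Secreted and defense proteins were put together from the called rises, and AML KO replicate 2 was highest in 6 of these 9 genes. That mouse was highest in 38.0% of all genes outside chromosome 7. Fcnb, the ficolin of granulocytes and monocytes, had 35.9, 45.2 and 42.2 CPM in AML WT and 86.3, 155 and 93.7 CPM in AML KO BM (log2 fold change 1.44, SE 0.22, edgeR adjusted p = 0.0133). The chitinase Chit1 and the chitinase-like protein Chil1, neighbors on chromosome 1, rose by 1.80 and 2.07. Chil1 had 5.80, 10.9 and 21.9 CPM in AML WT and 54.6, 63.7 and 43.4 CPM in AML KO BM, with the wider relative spread in AML WT. The protease inhibitor Slpi rose from 45.3 ± 3.46 to 85.8 ± 11.1 CPM and Anxa1, an anti-inflammatory annexin, from 293 ± 41.8 to 499 ± 53.2 CPM (SD, n = 3 each). The acute-phase protein Orm1, the chaperone Clu and Ltbp1, which binds latent TGF-β, rose by 2.30, 1.72 and 1.57. Igfbp4, an IGF-binding protein, rose 1.48-fold with little spread, from 315, 299 and 323 CPM to 454, 456 and 472 CPM (edgeR adjusted p = 0.028, 0.0599 with AML WT and AML KO mice alone). None of these 9 genes kept its call without AML WT replicate 2. The mature neutrophil markers stood 12366 to 19485 against 2387 to 5949 CPM in the same mice, highest in AML KO replicate 1. The 6 primary granule markers stood 7028 to 8368 against 5377 to 6017 CPM, highest in AML KO replicate 2. Whether the rises go with either list was not tested.

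Single genes of cell survival and metabolism rose. EdgeR called 1 of 40 autophagy and mitophagy genes (2.5%), 0.73% of 137 carbohydrate and glycan enzymes and 1.32% of 76 redox and glutathione genes. Over all genes beyond markers the share was 1.40%. The called members of these families were Optn, Ldhb and Msra. Bcl2l1, the antiapoptotic protein Bcl-xL, had 29.1, 33.0 and 33.5 CPM in AML WT and 74.9, 48.5 and 53.8 CPM in AML KO BM (log2 fold change 0.89, SE 0.18, edgeR adjusted p = 0.0341, 0.0618 with AML WT and AML KO mice alone), while proapoptotic Pmaip1 fell. Bcl2l1 and Pmaip1 were in no family counted here, and genes of apoptosis were not counted as a set. Optn, a receptor of mitophagy, rose by 1.23, Ldhb, a subunit of lactate dehydrogenase, by 1.17, and Msra, which repairs oxidized methionine, by 0.55. All 4 genes lost their call without AML WT replicate 2. In each of them AML KO replicate 1 was highest.

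All 3 listed constant regions of the T cell receptor gamma locus on chromosome 13 rose, while the T and NK cell markers overlapped between the groups (120 to 272 CPM in AML WT and 209 to 233 CPM in AML KO BM). Tcrg-C2 had 4.52, 4.93 and 7.71 CPM in AML WT and 25.1, 16.4 and 20.2 CPM in AML KO BM (log2 fold change 1.85, SE 0.26, edgeR adjusted p = 0.00988). Tcrg-C4 and Tcrg-C1 rose by 1.78 and 0.94. These regions are related and some of their reads may be shared, and the group was named after values were seen. All 3 lost their call without AML WT replicate 2, with adjusted p of at most 0.0883 over the fits without 1 mouse.

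Pseudogenes and numbered gene models gave 9 rises and 1 fall among 1195 genes by edgeR (0.837%, below the 1.40% of all genes beyond markers). DESeq2 called 30 higher and 11 lower, and limma-voom 9 higher and none lower. Rps13-ps1 (ENSMUSG00000066362, chromosome 8, 87047689 to 87048226), a processed pseudogene of a ribosomal protein gene, showed the largest rise among the called genes. It had 1.57, 1.64 and 1.62 CPM in AML WT, 78.6 and 88.7 CPM in AML HET and 327, 70.6 and 164 CPM in AML KO BM. AML WT values hardly differed, and AML KO replicate 2 lay below both AML HET mice. Its log2 fold change was 6.86 (SE 0.55, edgeR adjusted p = 0.00119). The parent gene Rps13 lies on chromosome 7 and had 558, 647 and 716 CPM in AML WT and 1117, 734 and 746 CPM in AML KO BM (edgeR adjusted p = 0.272), and as reads of near-identical copies may be divided between them, the value of Rps13-ps1 is uncertain. The same holds for Mrpl48-ps on chromosome 4, whose parent Mrpl48 also lies on chromosome 7. Mrpl48-ps had 0.295, 0.316 and 0.367 CPM in AML WT, 1.65 and 2.04 CPM in AML HET and 1.86, 1.38 and 2.33 CPM in AML KO BM (log2 fold change 2.504, SE 0.34, edgeR adjusted p = 0.00904), with AML HET at the level of AML KO, and Mrpl48 had an edgeR adjusted p of 0.644. Gm2830 rose by 2.31 and kept its call without any single mouse, as did Rps13-ps1, while Mrpl48-ps lost its call without AML WT replicate 2 (adjusted p = 0.0621).

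**Figure D4:**
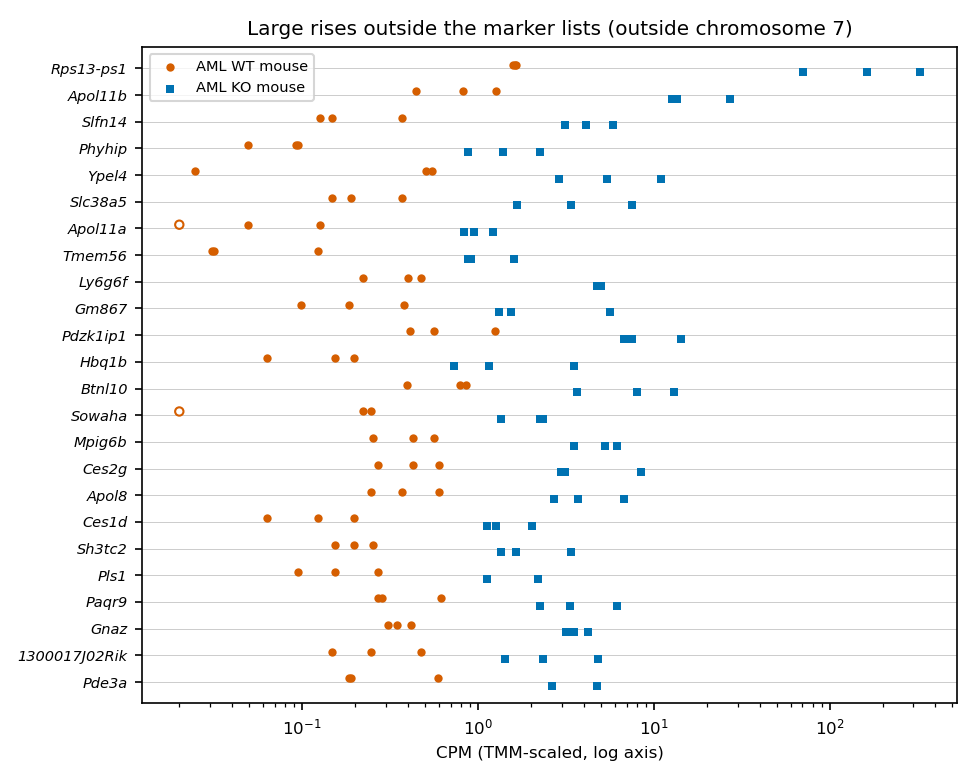
CPM (TMM-scaled, log axis) of the genes with the largest rises outside the marker lists and chromosome 7 in each AML WT (circles) and AML KO mouse (squares); open circles at the left edge are mice with a count of 0. No gene overlapped between the groups, and Rps13-ps1, at 70.6 to 327 CPM in AML KO BM, stood far above the rest.

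Another 44 rises beyond the markers, 19 of them at least 4-fold, lie outside these groups. Those with a call in each fit without 1 mouse were Samd14, which promotes Kit signaling in erythroid precursors, Ripor3 and Nrgn, the calmodulin-binding protein neurogranin. Samd14 had 2.46, 4.11 and 2.54 CPM in AML WT and 26.5, 14.5 and 17.4 CPM in AML KO BM (log2 fold change 2.68, SE 0.34, edgeR adjusted p = 0.00673). Hbq1b, a theta globin, Pdzk1ip1, Ypel4, Phyhip and Tmem56 were among the 25 largest rises, with log2 fold changes of 3.64 to 4.23, and Hbq1b and Ypel4 lost their call with limma-voom (adjusted p = 0.0871 and 0.0711). Phyhip and Tmem56 had at most 5 reads in any AML WT mouse.

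Several large families had no called gene by edgeR. None of 309 genes of E3 ligases and the ubiquitin system was called, with 20 higher and 23 lower at an unadjusted p under 0.05, and DESeq2 called 3 higher and 1 lower and limma-voom none. Of 145 proteasome and chaperone genes 6 were higher and 5 lower at that threshold, and DESeq2 called 3 and 1. Protein phosphatases (128 genes, 14 higher and 4 lower unadjusted, DESeq2 4 and 3, limma-voom none), Ras and Rap GTPases with their regulators (52 genes, 2 and 8, DESeq2 1 and 1, limma-voom 1 higher) and cytokines, chemokines and growth factors (88 genes, 12 and 10, DESeq2 2 and 1, limma-voom 1 higher) had none either. The C2H2 zinc finger genes named Zfp lay slightly lower in the mean of the groups: 190 of 244 had a log2 fold change below 0, with a median of −0.19 against −0.02 for all genes. At an unadjusted p under 0.05, 8 were higher and 27 lower. DESeq2 called 2 of them higher and 5 lower, and limma-voom none. Their median stayed between −0.25 and −0.12 over the fits without 1 mouse. By mouse, relative to the AML WT mean, their median (log2) was 0.166, −0.130 and −0.026 in AML WT BM. In AML KO BM it was −0.224, −0.271 and −0.130, so AML WT replicate 2 lay at the level of AML KO replicate 3.

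**Figure D5:**
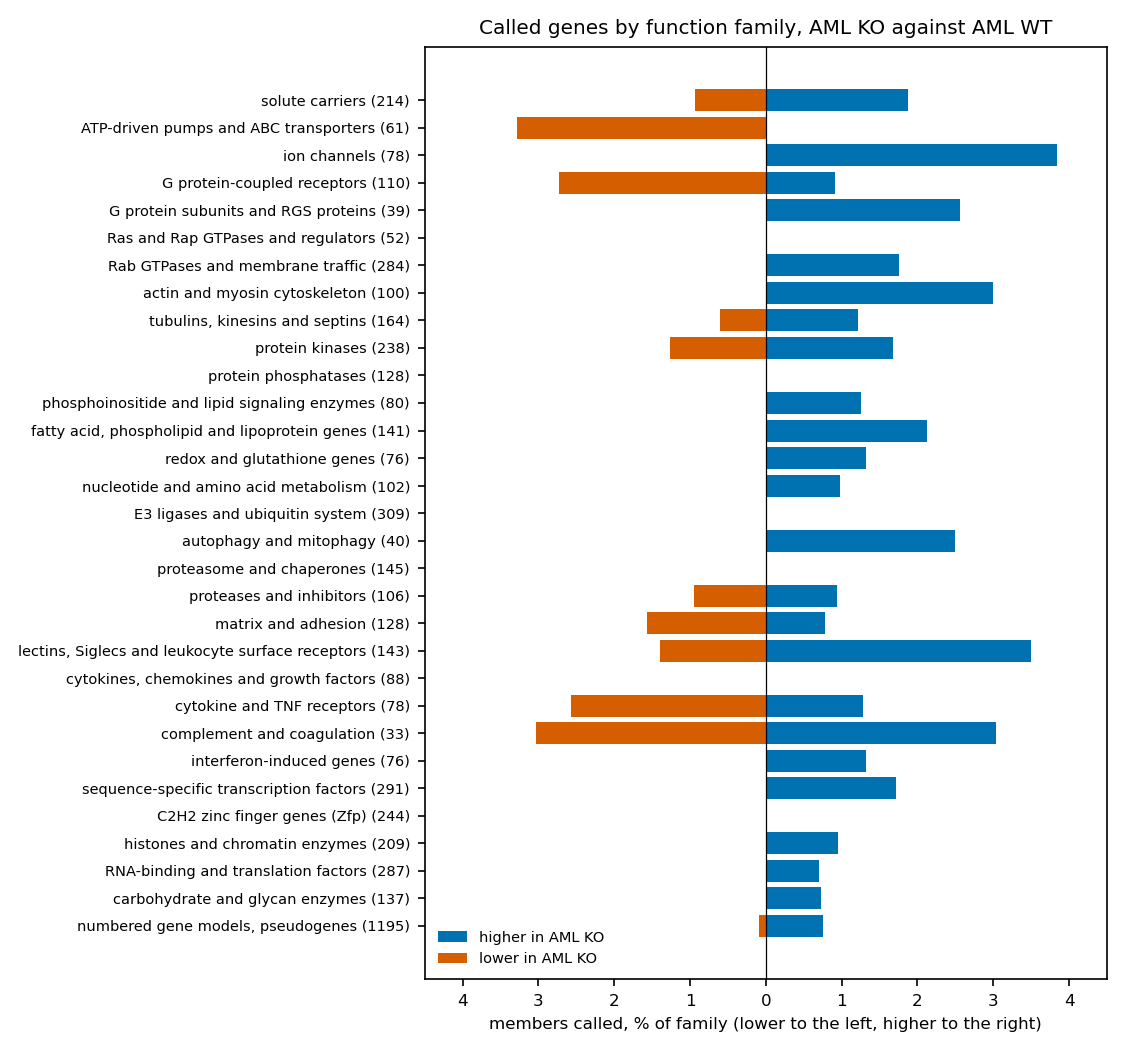
Percent of the tested members of function families called by edgeR higher (blue, to the right) and lower (orange, to the left) in AML KO BM, with the number of members in parentheses; marker genes and chromosome 7 are left out. By edgeR, pumps and ABC transporters had falls alone and 6 families no call. Many families had rises alone, among them membrane traffic, transcription factors, ion channels and actin and myosin genes. Over all genes beyond markers 1.14% were higher and 0.258% lower. DESeq2 called members in both directions among the pumps and the ion channels, and called members of all 6 families without an edgeR call.

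Most rises were highest in AML KO replicate 1 and most falls in AML KO replicate 2, although the secreted and defense rises were mostly highest in replicate 2. Of the 137 rises, 101 (73.7%) were highest in AML KO replicate 1, compared with 40.4% of all 12246 genes. In 59 rises (43.1%, against 26.4% of all genes) the order was replicate 1, 3 and 2. That is the order of the erythroid marker sum, and also of the basophil and mast cell, HSPC and osteoclast sums. In 42 (30.7%, against 14.0%) it was replicate 1, 2 and 3, the order of the mature neutrophil, eosinophil, B cell and T and NK cell sums. Of the 31 falls, 23 (74.2%) were highest in AML KO replicate 2, compared with 38.0% of all genes. The monocyte, macrophage, megakaryocyte and platelet, primary granule, dendritic cell and stromal sums were also highest in that AML KO mouse. Some orders rested on small differences. AML KO replicates 1 and 2 had megakaryocyte and platelet sums of 722 and 724.9 CPM. Their B cell sums were 598.3 and 588.3 CPM, and their T and NK cell sums 233 and 229.8 CPM. The shares and orders describe 3 mice, and whether lineage composition sets the order was not tested.

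Promoters of called genes were searched for AGATAA, the core of Gata sites, and TTCNNNGAA, the core of Stat sites, on both strands, in windows of 300 bases around transcription starts from RefSeq (GRCm38.p6). A gene was counted once if any of its windows held a match, so genes with several windows had more chances of one. Of 9179 genes with a window, 7.94% held AGATAA and 8.12% TTCNNNGAA. Among rises beyond markers, 12 of 104 (11.5%) held AGATAA and 7 (6.73%) TTCNNNGAA, and among the falls 3 of 22 (13.6%) and 2 (9.09%). Of 56 marker genes that rose and had a window, 18 held AGATAA (32.1%) and 4 TTCNNNGAA (7.14%). Of the rises beyond markers Ly6g6f, Btnl10, Mylk3 and Pcyt1b held AGATAA at 2 positions of 1 window, and those of the first 3, which rose more than Pcyt1b, are printed here with Apol11b and, of the falls, Rtn1, which hold TTCNNNGAA once each. Capitals mark the matches, AGATAA on the other strand reads TTATCT, and a match is a description of letters only. The Apol11a window, on the other strand of chromosome 15, is identical to that of Apol11b at 298 of 300 bases and is not printed.
Ly6g6f promoter, chr17:35085546-35085845, minus strand: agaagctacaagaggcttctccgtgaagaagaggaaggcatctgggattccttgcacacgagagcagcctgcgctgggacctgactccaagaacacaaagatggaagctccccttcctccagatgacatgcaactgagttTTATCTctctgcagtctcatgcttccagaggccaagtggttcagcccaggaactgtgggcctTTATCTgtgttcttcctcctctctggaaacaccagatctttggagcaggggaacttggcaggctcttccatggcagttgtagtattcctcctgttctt
Btnl10 promoter, chr11:58917658-58917957, plus strand: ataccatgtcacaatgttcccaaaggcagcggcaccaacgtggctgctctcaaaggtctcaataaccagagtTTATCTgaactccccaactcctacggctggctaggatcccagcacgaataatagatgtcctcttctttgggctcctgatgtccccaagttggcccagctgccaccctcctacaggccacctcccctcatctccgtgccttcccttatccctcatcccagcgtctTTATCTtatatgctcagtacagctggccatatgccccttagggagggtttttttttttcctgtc
Mylk3 promoter, chr8:85380992-85381291, minus strand: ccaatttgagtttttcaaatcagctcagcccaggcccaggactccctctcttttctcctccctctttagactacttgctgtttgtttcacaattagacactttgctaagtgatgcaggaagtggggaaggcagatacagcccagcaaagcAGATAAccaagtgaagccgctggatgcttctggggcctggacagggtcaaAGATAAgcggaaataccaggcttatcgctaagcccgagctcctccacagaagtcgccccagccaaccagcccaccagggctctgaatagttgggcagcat
Apol11b promoter, chr15:77643237-77643536, minus strand: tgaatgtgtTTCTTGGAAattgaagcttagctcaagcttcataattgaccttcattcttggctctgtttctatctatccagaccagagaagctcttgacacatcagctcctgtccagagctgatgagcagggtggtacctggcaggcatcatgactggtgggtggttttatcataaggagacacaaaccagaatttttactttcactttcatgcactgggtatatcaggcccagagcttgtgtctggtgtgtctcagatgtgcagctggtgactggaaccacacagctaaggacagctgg
Rtn1 promoter, chr12:72235697-72235996, minus strand: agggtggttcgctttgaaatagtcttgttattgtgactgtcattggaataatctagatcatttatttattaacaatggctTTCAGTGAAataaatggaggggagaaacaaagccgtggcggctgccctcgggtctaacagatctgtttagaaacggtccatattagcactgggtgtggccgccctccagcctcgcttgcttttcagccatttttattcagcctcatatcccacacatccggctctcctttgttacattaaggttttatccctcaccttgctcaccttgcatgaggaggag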

How the data were processed

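The authors sequenced total RNA of whole BM on an Illumina instrument, 1 library for each of 8 mice. The deposited table holds raw counts of reads per gene and library, made by the authors without normalization, and the submitters' processing notes name Trimmomatic 0.36, STAR 2.5.2b and mm10. The tool and strand setting of counting are not given in the sources used here. Symbols and positions come from GENCODE M21 (GRCm38), which lacks 39 of the 13305 identifiers. Totals of 28009258 to 39266815 counts make 3 counts worth 0.0738 to 0.109 CPM, a limit for counting error only.

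Counts were tested in R 4.3.3 with edgeR 4.0.16 (TMM, filterByExpr, robust quasi-likelihood fit of all 8 mice on genotype), with Benjamini-Hochberg adjustment across the whole table and an adjusted p under 0.05 counted as a call. Genes on chromosome 7 were then set aside. SE values are of the log2 fold change. Separate animals were the replicates. Checked on simulated counts, the edgeR test found 96 of 100 genes changed 4-fold and 66 of 100 changed 2-fold, with 12 unchanged genes called. Marker sums were tested by exact permutation (two-sided). Families were built from gene symbols and may share genes, and a family has no test of its own. Named genes were the called falls, the 25 largest rises beyond markers, called family members and the alleles of the model, and others, among them the genes kept in every fit without 1 mouse, Rps13, Mrpl48, the MHC class II genes, Mfsd2b, Syne1, Kalrn, Mpig6b, Apol7c and single genes of small groups, were added after values were seen. The members and lists were chosen with earlier results of these data known, and 5 of the 37 families after their values were seen. Alternatives were DESeq2 1.42.0, limma-voom (limma 3.58.1), other scalings and filters, AML WT and AML KO mice alone, the replicate number as a block and each mouse left out in turn. Promoter windows were taken from RefSeq (GRCm38.p6). Figures were made with matplotlib 3.10.9. A few called genes and 1 family are counted but not named or drawn here.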

Additional observations from a re-analysis of the deposited data

How the results depend on the processing

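With DESeq2 the counts of genes called outside chromosome 7 were 664 in all, 460 higher and 204 lower, and 356 higher and 189 lower beyond markers, so that 69.3% of calls were higher, against 247, 212, 35, 137 and 31 and 85.8% with edgeR. In the simulation DESeq2 also called 50 unchanged genes, against 12 with edgeR, but its genes varied independently, so these counts may not hold for the real data. Restricting the test to genes with at least 10 CPM in 3 mice, which tests fewer genes (8580), gave 121, 99, 22, 55 and 19. Limma-voom, DESeq2 size factors, upper-quartile factors, TMM without marker genes, no filter and the AML WT and AML KO mice alone kept all 5 counts within 1.5 times, though not always with the same genes. Of the 172 genes called beyond markers or lower, 48 lost their call with AML WT and AML KO mice alone (among them Gfra2, Mgl2, Bcl2l1, Igfbp4, Pde10a and Adcy5, with adjusted p of 0.0651, 0.0864, 0.0618, 0.0599, 0.061 and 0.0757) and 15 with limma-voom (among them Slc38a5, Ces2g, Btnl10, Mgl2, Ypel4 and Hbq1b, with 0.0757, 0.0826, 0.0762, 0.0607, 0.0711 and 0.0871). With upper-quartile factors 3 lost it, with DESeq2 size factors 1, and with the filter at 10 CPM 12 of those still tested. None of these 172 genes changed direction under an alternative that tested it.

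Leaving out 1 mouse gave 35 to 327 calls, 33 to 241 higher and 2 to 86 lower, and beyond markers 19 to 171 higher and 2 to 78 lower. The lowest counts came without AML WT replicate 2 and the highest without AML KO replicate 2. Without AML KO replicate 1, AML KO replicate 3 or AML WT replicate 1 the calls numbered 122, 111 and 152.

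With the replicate number as a block, 17 genes were called, 16 higher and 1 lower, and beyond markers 7 higher and 1 lower. Mice of the same number share only a number in the labels, and they were not treated as paired. Deviations from the group means of same-numbered AML KO and AML WT mice correlated at −0.509, −0.109 and −0.131. Those of same-numbered AML HET mice correlated at 0.0761 and 0.289 with AML WT, and at −0.138 and −0.0397 with AML KO. Mice of different numbers were not compared, so these values do not show whether the mice were paired. Genes with few reads, such as Gfra2 (5 to 103 reads) and Apol11a (0 to 37 reads), are limited by counting error as well as by the spread between mice.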
